A study of Mus musculus with 2 samples.

Results

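The 10 genes described here encode the kinases, transcription factors and an inhibitor of cytokine signalling: Jak1, Jak2, Jak3, Tyk2, Stat3, Stat4, Stat5a, Stat5b, Stat6 and Socs1. They were chosen by name, out of 21938 protein-coding genes of the annotation GENCODE vM21 on the mouse assembly mm10 (GRCm38). A locus here means the gene body together with 10 kb of flank on each side. Open chromatin had been mapped by DNase-seq, which sequences the sites where the nuclease DNase I cuts nuclear DNA. There was 1 group of 2 libraries, both from whole spleen. The donors were B6CASTF1/J females, 36 days old, with no treatment named. B6CASTF1/J animals are F1 hybrids between C57BL/6 and CAST, so each locus has a copy from either strain, and the peaks are not split by copy. The libraries are labelled as biological replicates from differently numbered females, yet carry the same donor entry, so that the spread between them may be in part technical. With 1 group there is no contrast to test, and values are given for each library. Each has a shorter and a longer peak list, and the shorter one was used unless the longer is named.

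JAK kinases sit on the inner ends of cytokine receptors. When a cytokine joins the receptor chains, the kinases phosphorylate STAT proteins, which pair, enter the nucleus and bind DNA at paired TTC and GAA half-sites. SOCS1 is switched on by the pathway and inhibits the kinases. In lymphocytes, which make up much of the spleen, JAK3 works with the shared gamma chain of the interleukin 2 receptor family, STAT4 acts downstream of interleukin 12, STAT6 downstream of interleukin 4, and STAT5A and STAT5B downstream of interleukins 2 and 7.

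Chromatin was open at the promoter of all 10 genes in both libraries, where a promoter is 1 kb on each side of any annotated start site. Of all protein-coding genes 53.4% had such a peak in replicate 1, 56.9% had one in replicate 2 and 53.1% had one in both. The 10 loci together held 48 distinct peaks in replicate 1 and 86 in replicate 2, a mean of 67 ± 26.9 (SD, n = 2). Of these, 46 of 48 in replicate 1 overlapped a peak of replicate 2, or 95.8% (95% Wilson interval 86.0 to 98.8%). In the other direction 46 of 86 did, or 53.5% (43.0 to 63.7%). Over all peaks of the series the shares were 93.8% and 65.7%. These intervals cover counting error only and treat the peaks as independent. Of the 86 peaks of replicate 2, 10 formed a run of weak peaks inside Stat5a, described below, and none of these overlapped a peak of replicate 1.

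The sequences that follow are the stretches on which the results below turn. The first 3 lie directly upstream of a start site, run in the direction of the gene, and have in capitals the bases inside footprints of both libraries. A footprint is a short stretch that is protected from cutting inside open chromatin. The last 2 have in capitals the matches to the STAT consensus, TTCNNNGAA. All were read from the reference assembly GRCm38.p6, which holds the C57BL/6 letters and not those of CAST.
Stat3 upstream, chr11:100939541-100939820, minus strand: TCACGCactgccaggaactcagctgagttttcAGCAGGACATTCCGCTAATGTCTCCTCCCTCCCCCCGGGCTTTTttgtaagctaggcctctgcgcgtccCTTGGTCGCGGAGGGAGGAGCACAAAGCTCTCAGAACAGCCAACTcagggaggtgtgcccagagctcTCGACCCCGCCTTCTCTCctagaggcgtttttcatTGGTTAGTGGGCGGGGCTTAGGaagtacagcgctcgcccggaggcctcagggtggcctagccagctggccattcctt
Jak1 upstream, chr4:101265283-101265420, minus strand: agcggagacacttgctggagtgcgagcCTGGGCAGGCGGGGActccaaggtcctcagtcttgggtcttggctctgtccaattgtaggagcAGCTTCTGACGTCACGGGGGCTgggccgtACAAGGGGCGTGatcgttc
Socs1 upstream, chr16:10785537-10785660, minus strand: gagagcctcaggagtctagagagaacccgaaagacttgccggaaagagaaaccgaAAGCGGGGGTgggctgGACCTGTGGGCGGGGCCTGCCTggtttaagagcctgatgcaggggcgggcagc
Stat4 downstream, chr1:52113826-52113946, plus strand: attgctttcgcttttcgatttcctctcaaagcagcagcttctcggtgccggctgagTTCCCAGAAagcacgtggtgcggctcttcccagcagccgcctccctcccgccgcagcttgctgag
Socs1 downstream, chr16:10772309-10772402, minus strand: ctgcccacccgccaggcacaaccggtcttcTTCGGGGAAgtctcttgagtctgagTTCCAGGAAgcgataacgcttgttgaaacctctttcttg

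Promoter signal set the 10 genes widely apart. Signal is the authors' value per peak, and the strongest peak at a promoter stands for the gene. Stat3 was first, with 15.8 in replicate 1 and 17.5 in replicate 2. Jak1 was second in both libraries, with 10.3 and 15.4. Next came a group whose order changed between the libraries: Jak2 had 7.17 and 10.1, Tyk2 had 5.55 and 10.6, Stat5a had 5.49 and 9.29, Stat6 had 4.74 and 9.27, and Socs1 had 5.81 and 6.60. Stat5b was eighth in both, with 4.18 and 4.80. Jak3 (2.31 and 2.06) and Stat4 (1.68 and 2.63) were the lowest and changed places. The genes with a promoter peak over the whole annotation had a median of 5.13 in replicate 1 and 6.02 in replicate 2, so that Stat5b, Jak3 and Stat4 were below it in both libraries. Stat6 was below it in replicate 1 alone.

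**Figure D1:**
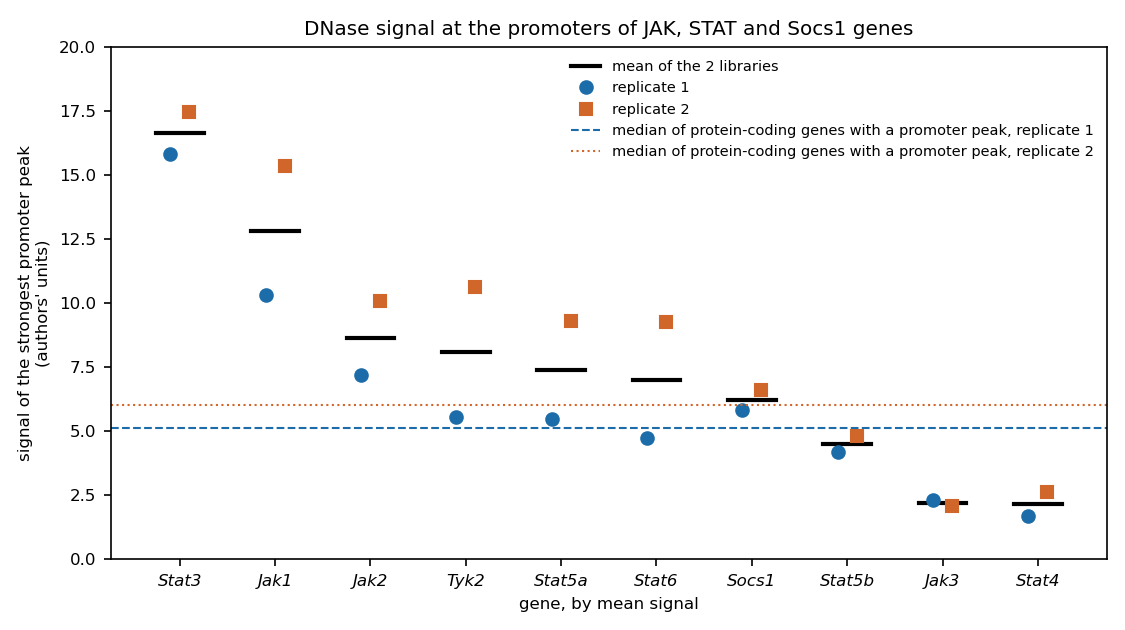
Signal of the strongest peak within 1 kb of an annotated start site (authors' units), for each of the 10 genes, with circles for replicate 1, squares for replicate 2 and a bar for their mean. Stat3 and Jak1 lie above the other 8 genes in each library, and Stat5b, Jak3 and Stat4 lie below both medians of the protein-coding genes that have a promoter peak.

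The 4 kinase genes followed different patterns. Jak1, the kinase shared by the interferon, interleukin 2 and interleukin 6 receptor families, had 1 annotated start site, and the peak over it at chr4:101265201-101265420 ranked 1354 of 42454 by signal in replicate 1 and 1350 of 60683 in replicate 2. It held 6 and 5 footprints, 4 of them in both libraries. One of the shared footprints, in the printed sequence, holds the whole of TGACGTCA, the consensus of the cyclic AMP response element family (CREB and ATF factors). Searched on both strands, this motif was in 1.25% of windows of the same length centred on all replicate 1 peaks, at promoters or elsewhere. A second, weaker promoter peak lay 353 bases inside the gene (1.20 and 1.32).

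Jak1 also had a series of peaks inside the gene. In introns, 7 regions had a peak in both libraries, 1 of them in an intron of the neighbour Raver2. Their signal was between 0.886 and 1.79 in replicate 1 and between 0.743 and 2.63 in replicate 2, far under that of the promoter. The strongest was at chr4:101182621-101182820, which lies 82550 bases downstream of the start site. A further 12 regions had a peak in replicate 2 alone, 1 of them at the start site of the small annotated gene Gm24468. In all, the locus had 9 peaks in replicate 1 and 21 in replicate 2, and its footprints numbered 17 and 51.

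Jak2, the kinase of the erythropoietin receptor, had few peaks, with 3 in replicate 1 and 4 in replicate 2, and all lay at or just behind its start sites. The strongest, at chr19:29251581-29251840, covered the first start site, ranked 3599 and 3464, and shared 5 footprints between the libraries. The other peak in both libraries was intronic, 1530 bases downstream of the nearest start site, with a signal of 3.77 and 3.73. It held 2 and 6 footprints, 2 of them shared, and a match to the core consensus of the insulator factor CTCF. Between these lay a peak in replicate 1 alone (1.09), and a pair of peaks in replicate 2 alone (0.835 and 0.620). The first of this pair covered the second start site. No peak was called in the remaining body of the gene, which is 61.3 kb long, in the shorter list of either library.

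Jak3 and Tyk2 are shorter genes. Neither start site of Jak3 lay under a peak. The peak behind the first began 105 bases downstream in replicate 1 and 65 bases downstream in replicate 2, at chr8:71676361-71676680. The peak behind the second began 170 and 163 bases downstream, with a signal of 1.35 and 1.24. The strongest peak of the Jak3 locus was at the promoter of its neighbour Unc13a, 4515 bases upstream, with 3.88 and 3.93, and it held 2 shared footprints. A peak in an intron of Unc13a was called in replicate 2 alone (1.73). Tyk2, the kinase of the type I interferon and interleukin 12 receptors, had 1 promoter peak, at chr9:21131201-21131540, which covered a pair of start sites 11 bases apart. Each library had 6 footprints there, and 2 were shared. Its internal start site at position 21127346 had no peak within 1 kb in either library, in the shorter or the longer list. The other peaks of the Tyk2 locus lay in exons of the neighbour Cdc37, whose product is a chaperone partner of kinases. The one in both libraries, 6164 bases upstream of Tyk2, had 1.68 and 1.30 and a CTCF match, and 3 more had a peak in replicate 2 alone (0.779 to 1.15).

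Among the STAT genes, Stat3, the factor of the interleukin 6 family, had the strongest promoter peak of the set. It ranked 132 of 42454 in replicate 1 and 854 of 60683 in replicate 2. At chr11:100939401-100939820 it held 6 footprints in replicate 1 and 7 in replicate 2, and all 6 of replicate 1 were shared. In the upstream sequence printed above, footprints of both libraries lie in 5 places and take up 48.2% of its 280 bases. A GGGCGG match, the consensus of SP and KLF factors, lies wholly inside the one nearest to the start site. Such a match was in 35.4% of windows of that length centred on all replicate 1 peaks. Inside the gene a second strong peak, at chr11:100893521-100893720, had 4.38 and 4.12, with 5 and 3 footprints, and 3 of the 5 in replicate 1 were shared. It lies within 10 kb of the Stat5a body and counts for both loci. Another intronic peak, 7649 bases downstream of the nearest start site, had 1.10 and 1.27 and a match to the IRF consensus, a pair of GAAA blocks with any 2 bases between them.

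Stat4 had, with Jak3, the weakest promoters of the set, but the strongest peak away from a promoter of its own. Its upstream start site at position 51987148 had no peak within 1 kb, and the false discovery rate (FDR) track listed no base there in either library. At its other start site the nearest peak began 298 bases downstream, at chr1:52008541-52008720. The ratio of observed to expected CpG within 500 bases of the start sites was at most 0.230, the lowest of the 10 genes, against a median of 0.606 over all genes. The strongest peak of the locus lay past the end of the gene, 105598 bases downstream of its nearest start site, at chr1:52113721-52113960, with 11.9 in replicate 1 and 16.2 in replicate 2. It ranked 732 and 1129, and all 5 footprints of replicate 1 were shared. It lies at the start site of the noncoding gene Gm31812 and within an annotated noncoding transcript, Gm28177. The sequence printed for it holds the STAT match TTCCCAGAA, which lay in no footprint. Inside the gene, 3 intronic regions were open in both libraries. The one with the highest mean signal lay 3218 bases downstream of the second start site (1.26 and 2.11), and one 3962 bases upstream of that site had more in replicate 1 (1.57 and 1.12).

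Stat5a, Stat5b and Stat3 lie next to each other on chromosome 11, and 13 regions fell in the loci of 2 of them. Stat5a and Stat5b encode closely related factors. The Stat5a peak, at chr11:100860301-100860540, covered the third of its start sites and lay 950 and 645 bases from the first and second. It held 3 and 4 footprints, 2 of them shared, and was also the strongest peak of the Stat5b locus, 9697 bases upstream of that gene. Both start sites of Stat5b lay under a peak in both libraries. The one at position 100850724 had 4.18 and 4.80, and 6 footprints in each library, with all 6 of replicate 1 shared. The internal one at position 100822528 had 2.06 and 3.43. A weaker peak lay 583 bases inside the gene (1.41 and 1.50), and one 643 bases upstream was called in replicate 2 alone (0.718). Away from start sites, the strongest Stat5b peak was intronic, at chr11:100814541-100814740, with 3.12 and 4.79. At the far end of the locus the promoter of the neighbour Ghdc had 3.57 and 3.96.

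Stat6 had a cluster of peaks around its single start site. In replicate 1 there were 3 that reached within 1 kb and in replicate 2 there were 5, and the 3 of replicate 1 were all shared. The middle one covered the start site at position 127642986 (4.74 and 9.27). A second was centred 1035 bases upstream (3.98 and 3.38) with 4 shared footprints, and the remaining one 1045 bases downstream (2.99 and 3.95) with 3. The pair called in replicate 2 alone, with 0.964 and 1.42, lay between them, and in replicate 1 the FDR track was at or under 0.001 over every base of both. In replicate 1 all 2001 bases within 1 kb of the start site were at or under that value, against 1493 in replicate 2. The other peaks lay past the end of the gene, at the start sites of the neighbours Nab2, Nemp1 and Gm16229 and in their introns. The strongest of these had 3.21 and 4.81, and the strongest away from any start site was in Nemp1, with 2.08 and 3.49.

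Socs1 is a short gene, of 3.30 kb. It had 3 promoter peaks in both libraries, and the strongest was not the same one. In replicate 1 it was the peak centred 375 bases inside the gene (5.81, against 5.01 in replicate 2), and in replicate 2 the peak over the start site (6.60, against 4.21 in replicate 1). The third, 985 bases upstream, had 3.08 and 4.16. Inside the gene lay 1 more peak in replicate 1 alone (0.717) and 1 in replicate 2 alone (0.456). The upstream sequence printed above holds a pair of overlapping IRF matches, GAAAGAGAAA and GAAACCGAAA, and 2 shared footprints. An IRF match was in 1.55% of windows of that length centred on all replicate 1 peaks. Of the 10 bases of the match nearer to the start site 2 were inside footprints of both libraries, and of the other match 0. In replicate 2 alone, the footprint at positions 10785596 to 10785620 covered both matches in full. The footprint of replicate 1 that it shares ended at position 10785605. Replicate 2 alone had peaks at the promoter of the neighbour Tnp2 (0.897 and 0.523). Downstream of the gene, 13210 bases from the start site, an intergenic region had 0.960 and 1.92.

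**Figure D2:**
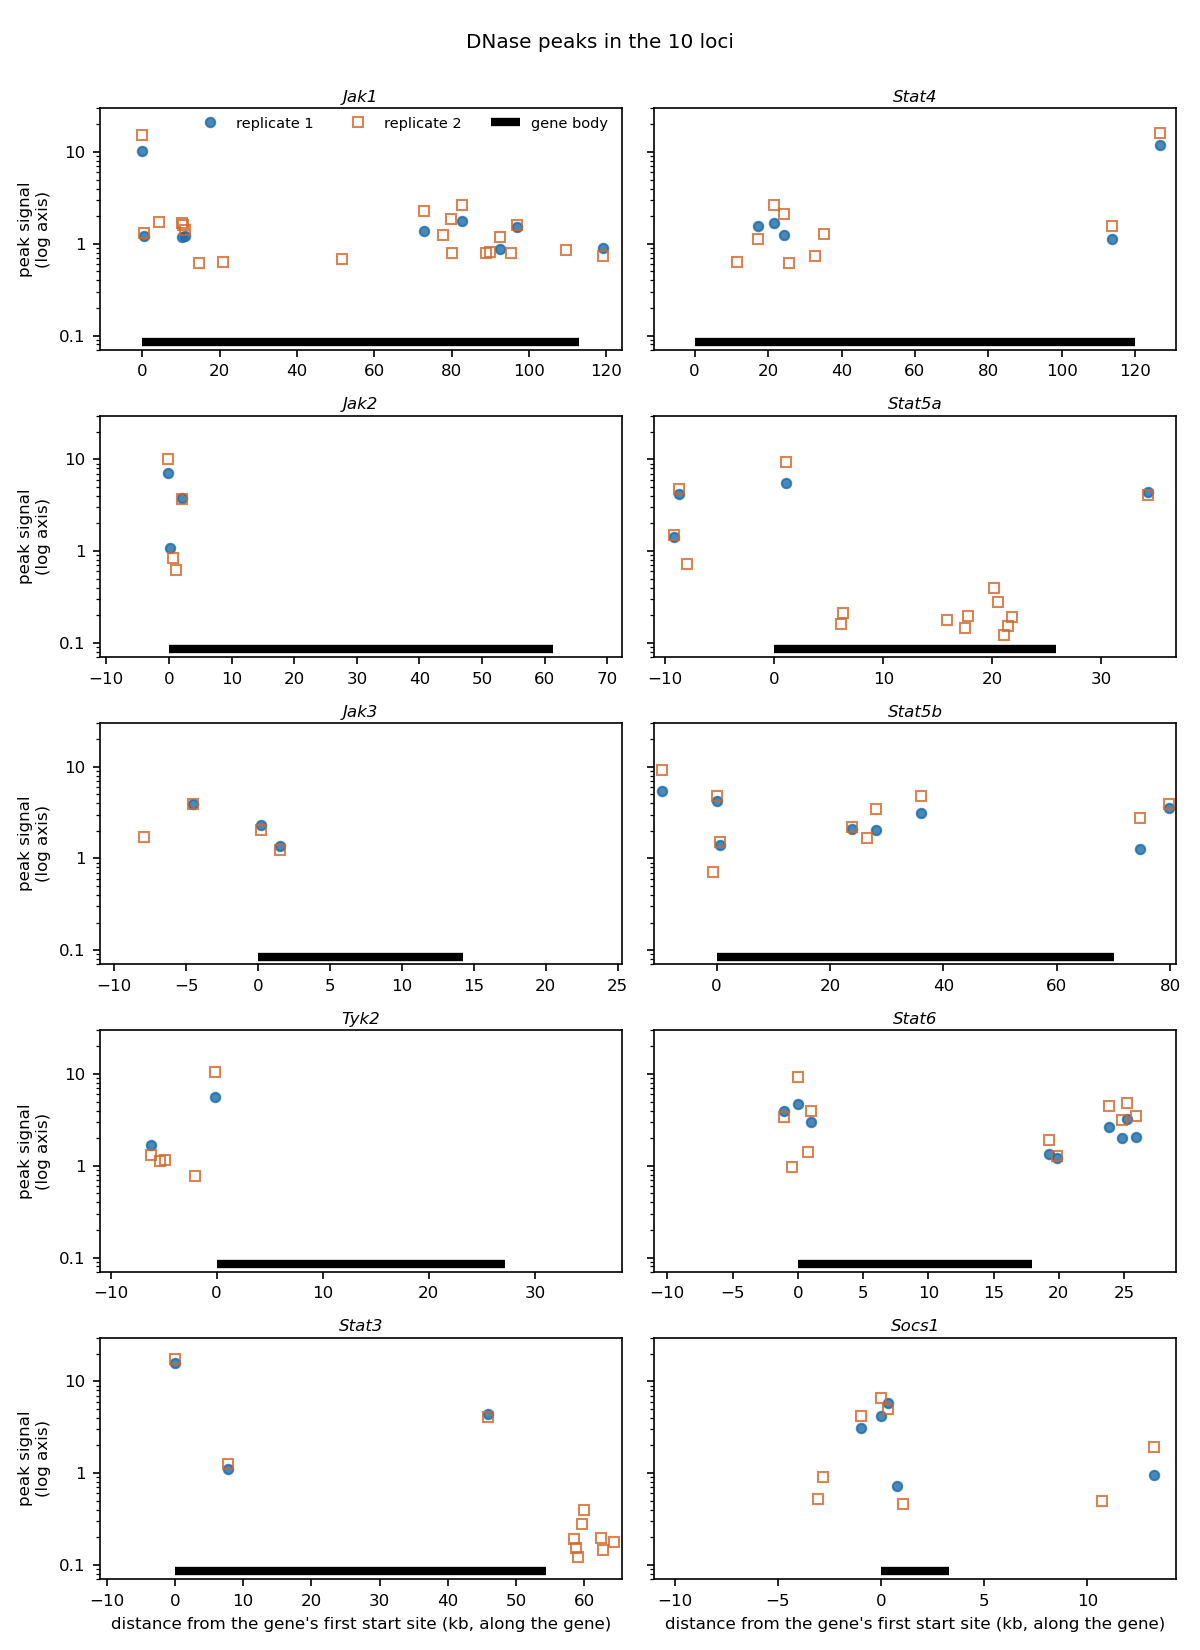
Peaks of each of the 10 loci by the distance of their midpoint from the gene's first start site (kb, in the direction of the gene), with the authors' signal on a log axis. Filled circles stand for replicate 1, open squares for replicate 2 and the bar for the gene body. The strongest Stat4 peak lies past the end of the gene, and the weak squares inside Stat5a, seen again at the right of Stat3, have no circle.

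The 10 genes have 21 distinct start sites. A peak lay within 1 kb of 19 of them in each library, and over 10 in replicate 1 and 13 in replicate 2. The 2 without one in either library were the internal Tyk2 site and the upstream Stat4 site. At the Tyk2 site the FDR track listed no base in replicate 1 and 2 bases in replicate 2, the lowest at 0.0474. The strongest peak of the locus was at a promoter of the gene itself for 7 of the 10 genes in each library. The exceptions were Jak3, Stat4 and Stat5b.

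Merged over the libraries, the peaks formed 87 distinct regions, of which 40 had a peak in replicate 2 alone, 2 in replicate 1 alone and 45 in both. Own promoters held 26 regions, 18 of them in both libraries. Introns held 41, and 17 of them were in both. Promoters of other genes held 10 (7 in both), exons 7 (1 in both) and intergenic sequence 3 (2 in both). The regions of replicate 2 alone were weak, with a median signal of 0.723 there (0.123 to 1.86), against 3.18 (0.743 to 17.5) for the regions in both. Of the 40, 21 had a base listed under an FDR of 0.05 in replicate 1, 19 had none, and 2 reached 0.001. Every region with a peak in replicate 1 reached 0.001 there, so the last count follows largely from the choice of regions without one.

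Per length, the loci of the 10 genes held a median of 0.775 peaks per 10 kb in replicate 1 and 1.32 in replicate 2, against 0.339 and 0.433 over all protein-coding genes. Stat6 had 2.63 and 3.16 and Socs1 had 2.15 and 3.43, which put Stat6 at percentiles 98.8 and 98.5 of all genes and Socs1 at 97.2 and 98.9. The lowest were Stat4 (0.357 and 0.643) and Jak2 (0.369 and 0.492), close to the median of all genes. In density Stat5a differed most between the libraries, with 0.873 in replicate 1, at percentile 78.9, and 3.27 in replicate 2, at percentile 98.7. In percentile Stat3 differed more, with 55.2 and 87.0. The FDR track is not independent of the peak lists, as each region with a peak in a library reached 0.001 in that library. By this track, 11.4% and 11.8% of the bases of the Stat6 locus were at or under 0.001. The values were 8.02% and 13.3% for Socs1, 3.66% and 9.14% for Stat5a, and 1.09% and 1.91% for Stat4, the lowest.

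**Figure D3:**
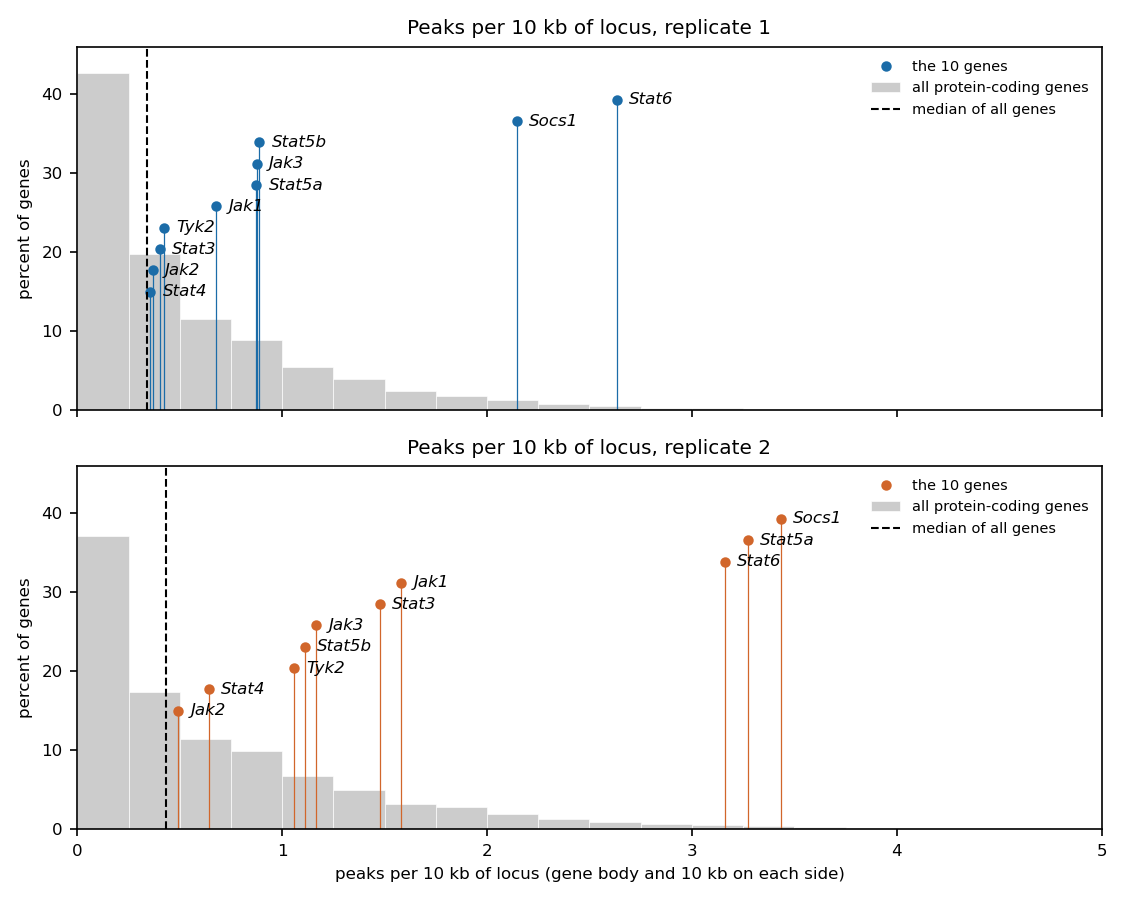
Peaks per 10 kb of locus in replicate 1 (top) and replicate 2 (bottom), with a labelled point for each of the 10 genes (their height only separates the labels) and bars for the percent of all protein-coding genes, up to 5 peaks per 10 kb. Stat6 and Socs1 lie far to the right in both libraries, and Stat5a does so in replicate 2 alone.

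The gain of Stat5a came from a run of 10 weak peaks inside the gene, between positions 100865385 and 100881274 of chromosome 11. All 10 had a peak in replicate 2 alone and a signal between 0.123 and 0.400, with ranks from 58506 to 60571 of 60683. In replicate 1 the FDR track listed no base in any of them. In replicate 2 their lowest FDR went down to 2.19e-30, in the peak at chr11:100879321-100879740, whose signal was 0.400. The Stat4 promoter peak, with a similar FDR of 3.34e-28 in that library, had a signal of 2.63. Stat5a exons were touched by 6 of the 10 and made up 620 of their 1924 bases, and 12 footprints lay in them. The last 8 are within 10 kb of Stat3 and were counted in its locus too. Without peaks under 0.5, Stat5a had 4 peaks in replicate 1 and 5 in replicate 2, against 4 and 15 with them, and Stat3 had 3 and 3, against 3 and 11. Among the 10 loci 12 peaks of replicate 2 were under 0.5, and 0 of replicate 1. Over the genome 6400 peaks of replicate 2, or 10.5%, and 1430 of replicate 1 were. Runs of 10 or more of them less than 20 kb apart numbered 13 in replicate 2 and 1 in replicate 1, so that the Stat5a run was not alone. What set these peaks apart was not tested.

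**Figure D4:**
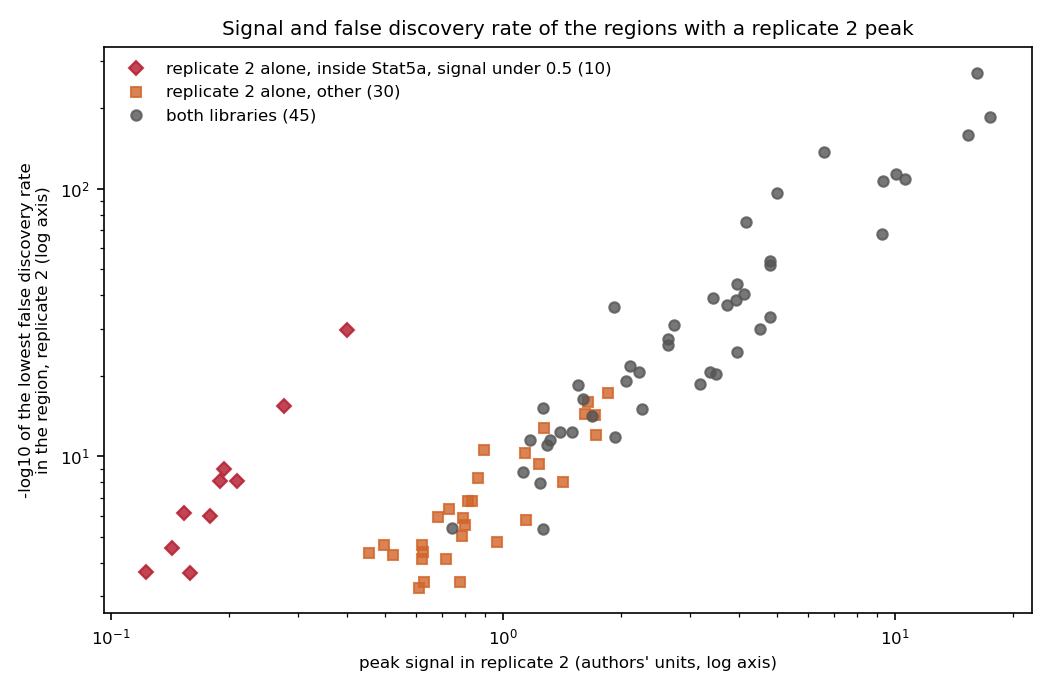
Each region of the 10 loci that had a peak in replicate 2, by the authors' signal and by the -log10 of the lowest false discovery rate within it, both in replicate 2 and on log axes. The 10 regions inside Stat5a (diamonds) lie to the left of the trend of the 30 other regions of replicate 2 alone (squares) and the 45 regions of both libraries (circles): at a given false discovery rate their signal was lower.

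The libraries differed in the number of peaks at most loci. Replicate 2 had more in all 10, from 1 more at Jak2 and Jak3 to 12 more at Jak1. The signal values of a library were whole multiples of a step, within 0.05 of a step, and the step was 2.06 times as large in replicate 1. What a step stands for is not given in the sources used here. Its part in the number of peaks was not tested. With replicate 2 limited to as many of its strongest peaks as replicate 1 had, its loci of the 10 genes held 64 peaks, against 48 in replicate 1.

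Footprints inside the peaks of the 10 loci numbered 123 in replicate 1 and 225 in replicate 2, or 1.20 and 1.29 per 100 bases of peak, against 1.25 and 1.44 over all peaks. Stat6 had 30 and 35, Stat5b 20 and 25, and Jak1 17 and 51. Of the 123, 91 were shared (overlap over at least 50% of the shorter one), or 74.0%, against 68.6% of all footprints in peaks. Of the 225, 97 were, or 43.1%, against 40.8%. At the peaks over the first start sites of Stat3 and Stat5b, and at the strongest Stat4 peak, every footprint of replicate 1 was shared. The same held at other regions with fewer footprints, such as the Stat6 peaks centred 1035 bases upstream and 1045 bases downstream of the start site.

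The STAT consensus was rare in these loci. TTCNNNGAA, or the form with 1 more base in its middle, was in the central 150 bases of 2 of 48 peaks in replicate 1 (4.17%, Wilson interval 1.15 to 14.0%) and of 6 of 86 in replicate 2 (6.98%, 3.24 to 14.4%). Over all peaks it was in 5.91% and 6.18%, within these intervals. Whole regions held 9 matches, of which 4 were in the Stat4 locus and 3 downstream of Socs1. None of the 18 own promoter regions open in both libraries held one. The 2 others were in replicate 2 alone: TTCCCTGAA at Jak2, 530 bases downstream of the nearest start site, where a footprint covered 4 of its 9 bases, and TTCAGAGGAA in a Jak1 intron.

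The Socs1 matches lay close together. TTCCAGGAA and TTCGGGGAA lie 25 bases apart, start to start, in the downstream region printed above, and 2 footprints of replicate 1 covered 8 of the 9 bases of the first. Another, TTCTTAGAA, was in a peak of replicate 2 alone nearer to the gene (0.497), and 2 footprints of replicate 1, which had no peak there, covered 7 of its 9 bases. At Stat4, TTCTCACGAA in an intron was covered over 7 of its 10 bases by a footprint of replicate 2, and TTCAGAGGAA over 5. None of the STAT matches in these loci was touched by footprints of both libraries. A match is a description of the letters in the window and not evidence of binding.

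Of the other consensus sequences searched on both strands, GGGCGG was the most frequent in these peaks in replicate 1, in 37.5% against 28.2% of all peaks; in replicate 2 it was in 24.4% against 23.2%. CTCF was in 8.33% and 4.65%, against 13.5% and 10.3%. The ETS consensus CCGGAA was in 2.08% and 5.81%, against 10.5% and 9.06%. The RUNX consensus TGTGGT was in 2.08% and 10.5%, against 12.4% and 14.2%. Counts are small: 1 of 48 peaks makes up 2.08%.

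Around the 10 genes, the rest of the pathway was open as well. Of 53 other genes, a promoter peak was present for 47 in replicate 1, for 48 in replicate 2 and for 47 in both, against 53.1% of all genes in both. Stat2, a factor of interferon signalling, had 8.02 and 13.5 at its promoter. All 7 of the other SOCS genes and Cish did, with Socs4 (9.00 and 11.9), Socs5 (7.24 and 13.4) and Socs7 (7.60 and 7.98) ranking best by the strongest peak in the locus. So did all 9 other negative regulators. By the strongest peak anywhere in the locus, the best ranks were those of Pias4, Ptpn1 and Ptpn6, which encodes the phosphatase SHP-1. Their promoter signals were 16.8 and 23.0 for Pias4, 12.8 and 19.0 for the phosphatase gene Ptpn1, and 7.01 and 12.2 for Ptpn6.

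Of 23 chains of cytokine receptors that signal through JAKs, 19 had a promoter peak in both libraries. Not every chain listed binds a JAK itself. By the same measure the best ranks were those of Ifngr1 (16.5 and 24.9) and Ifnar1 (14.2 and 27.3), chains of the interferon receptors, and of Epor, the erythropoietin receptor (2.46 and 3.28 at the promoter, with a stronger peak elsewhere in its locus). Among those without one in either library, Il2ra and Il12rb1 had peaks elsewhere in the locus, and Il13ra1 had none. Of 15 textbook STAT target genes, replicate 1 had the promoter of 12 open and replicate 2 that of 13. The best by this rank were Pim1 (11.5 and 15.5), Irf1 (9.91 and 16.9) and Bcl2l1 (8.40 and 14.0). Gata3 had one in replicate 2 alone (0.969), and Tbx21 and Il2ra in neither.

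As a check of the tissue, both libraries had a promoter peak at 5 of 5 B cell genes and at 4 of 5 T cell genes, the exception being Cd3e (replicate 2 alone). Of macrophage genes 2 of 5 did (Spic and Hmox1), and of erythroid genes 2 of 4, with 4 in replicate 2. Of liver genes 0 of 3 did in either library, and of muscle genes 0 in replicate 1 and 1 in replicate 2. Of neuron genes 3 of 3 did in replicate 1 and 2 in replicate 2, with signals of at most 2.17. All 5 B cell genes had more than this in each library. But Spic (0.549 and 0.523), Bcl11b (1.01 and 0.953) and Cd3g (0.960 and 1.67) had less than the neuron gene Syn1 (1.21 and 2.17). A weak promoter peak therefore does not separate spleen genes from the others. In a whole organ, more open cells and more opening per cell cannot be told apart.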

How the data were processed

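The members and gene lists were chosen with earlier results of these data known. Per the labels, each library is DNase-seq of 1 spleen. According to the deposited readme files, the peaks, footprints and cut rate track of a library come from its own mm10 alignments, without pooling. The sources used here do not name the aligner or the callers. The deposited peak lists give the authors' signal per peak, of unstated scaling. The shorter of the 2 lists per library was used (42454 and 60683 peaks; longer lists, 61285 and 89476). The deposited footprints (133725 and 246700) carry an FDR of 0.01, a q-value, on each line, and the deposited cut rate track gives a q-value for each run of bases listed, all under 0.05. Total read depth is not given.

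Peaks with their midpoint in a locus were counted, and shared if they overlapped by at least 1 base. Coordinates count from 1. A region is a merged peak of both libraries. Distances run to the nearest own start site from the midpoint of the region's strongest replicate 1 peak. Where replicate 1 had none, the strongest replicate 2 peak was used. Footprints were assigned by midpoint. Motifs were searched on both strands, in the central 150 bases of peaks. Sequences come from GRCm38.p6 (RefSeq). The text names all 10 genes, each gene's strongest peak, its start-site peaks and its strongest peak over 1 kb from any start, neighbours whose start lies at such a peak, and, of each pathway list, genes without a promoter peak in 1 or both libraries and the 3 with the best rank. Intronic series, weak peaks and footprint details were added after their values were seen. Python 3.11.15, numpy 2.4.6, scipy 1.17.1, pysam 0.24.0 and matplotlib 3.10.9 were used; interval and motif code was tested on simulated data. Some genes chosen by this rule are not reported here. There being 1 group, no test was run.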

Additional observations from a re-analysis of the deposited data

How the results depend on the processing

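All 10 genes kept a promoter peak in both libraries under every alternative tried (10 to 10). These were the longer list, the strongest 50% of each list, equal numbers of peaks, and promoter windows of 500 and 2000 bases. Start sites of coding transcripts alone, and leaving out either replicate, were tried too. The wider window and leaving out a replicate could not lower the count. Every start site of the 10 genes was that of a coding transcript, so that setting changed nothing. A value was taken to move where a count changed by over 1.5 times, a share left its 95% Wilson interval, or a median density changed by over 1 SD between the libraries; this was so in 8 cases. With the strongest 50% of the peaks, replicate 2 had 53 peaks in the loci, against 86, and a median of 0.888 per 10 kb, against 1.32. Without the flanks of 10 kb the loci held 27 and 56 peaks, 51 and 126 footprints, and in replicate 1 the STAT consensus was in 0% of peaks, against 4.17%. The median density of replicate 1 was then 0.472, and with the strongest 50% it was 0.504, against 0.775, both within 1 SD. That STAT share was 8.33% with whole peaks searched and 7.35% with the longer list, within its wide interval. With flanks of 25 kb replicate 1 had 189 footprints, against 123. Leaving out peaks with a signal under 0.5, an alternative added after the data were seen, left 48 and 74 peaks. The median density of replicate 2 was then 1.10, against 1.32, and no count, share or median moved by the rule above. Single genes changed more: in replicate 2 Stat5a had 1.09 peaks per 10 kb, against 3.27, and Stat3 had 0.403, against 1.48. The causes were not tested, beyond the smaller or larger windows and lists themselves. No paired analysis was possible because there is 1 group. The number of libraries limits every spread given.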
